A study of Rattus norvegicus with 6 samples.

Results

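The aldehyde dehydrogenases described here are 10 genes of the family, chosen by symbol: Aldh1a1, Aldh1a7, Aldh1a3, Aldh3a2, Aldh9a1, Aldh7a1, Aldh8a1, Aldh6a1, Aldh1l1 and Aldh5a1. A probe on the array was tied to a member when its transcript accession carried that symbol in a RefSeq gene table. This found probes for 7 of the 10 members, against 15284 named genes on the array, and those 7 were among the 11094 genes tested. No probe was named for Aldh1a7, Aldh7a1 or Aldh5a1, and these genes were not analysed here.

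The livers came from 6 male rats of the outbred Sprague-Dawley stock, bought at 5 weeks of age. The 3 rats of the vehicle group received no test chemical, and the 3 rats of the other group received tert-butyl alcohol (tBA) at 1000 mg/kg/day. The labels disagree on the vehicle, which is purified water in the sample labels and corn oil in the treatment protocol. They also disagree on the time, which is 28 days in the series text and 9 weeks in the treatment protocol. Each rat's liver RNA was labelled with Cy3 and read on 1 one-colour Agilent array, and the number of arrays limits the precision.

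Aldehyde dehydrogenases oxidise reactive aldehydes, mostly to acids, with NAD or NADP taking up the hydrogen. The substrates of the members include retinal, fatty aldehydes, the aldehyde of carnitine synthesis, the semialdehydes left by amino acid breakdown and a folate. The liver is a main site of all these routes. tBA is a tertiary alcohol, so alcohol dehydrogenase cannot oxidise it to an aldehyde as it does ethanol.

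The share of the 61657 probes that stood well above background ran from 61.5% to 66.9% over the arrays, with 0 saturated spots. All 15 hepatocyte markers were tested, and their summed level was 7560 to 8120 times the array's 75th percentile signal in vehicle and 7540 to 7910 times in tBA. The arrays lay on 2 slides: all vehicle arrays shared slide 1 with tBA replicate 1, while tBA replicates 2 and 3 were on slide 2. Slide and scan day coincided and cannot be told apart. In these bulk samples, fewer cells of a type and less RNA per cell cannot be told apart either.

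The promoters of the 3 members whose unadjusted limma p was under 0.05 are shown because the values that follow turn on these genes. They are RefSeq windows of the GRCr8 assembly from 250 bases before to 50 bases after the start of the gene, read along the gene, and 9 of the 10 members had one. Aldh1a7 had no entry. The windows are chr1:227537370-227537669 on the plus strand for Aldh1a1, chr1:129427594-129427893 on the minus strand for Aldh1a3 and chr10:46448286-46448585 on the minus strand for Aldh3a2. Capitals mark a CCAAT box (CCAAT) or a GC box (GGGCGG) on either strand, so a GC box on the other strand reads CCGCCC.
Aldh1a1: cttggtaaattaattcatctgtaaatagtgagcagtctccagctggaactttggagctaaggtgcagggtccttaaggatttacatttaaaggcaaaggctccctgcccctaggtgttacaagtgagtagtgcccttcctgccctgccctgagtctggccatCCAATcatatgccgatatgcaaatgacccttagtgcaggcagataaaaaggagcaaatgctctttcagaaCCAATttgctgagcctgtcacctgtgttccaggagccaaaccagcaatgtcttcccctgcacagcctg
Aldh1a3: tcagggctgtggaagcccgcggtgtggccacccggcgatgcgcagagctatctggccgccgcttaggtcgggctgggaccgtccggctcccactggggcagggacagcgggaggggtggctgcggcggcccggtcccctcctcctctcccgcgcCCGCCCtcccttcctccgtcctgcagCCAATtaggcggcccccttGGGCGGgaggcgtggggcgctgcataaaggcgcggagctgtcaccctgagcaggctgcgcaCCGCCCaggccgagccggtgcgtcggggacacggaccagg
Aldh3a2: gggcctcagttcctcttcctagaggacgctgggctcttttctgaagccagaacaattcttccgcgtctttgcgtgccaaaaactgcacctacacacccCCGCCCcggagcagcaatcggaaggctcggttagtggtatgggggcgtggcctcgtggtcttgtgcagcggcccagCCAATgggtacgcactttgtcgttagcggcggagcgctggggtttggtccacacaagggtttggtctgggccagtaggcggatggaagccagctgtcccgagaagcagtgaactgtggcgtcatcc

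For comparison, CCAAT was in 37.5% of 33469 promoter windows, GGGCGG in 33.1%, AGGTCA (the single hexamer of which nuclear receptor sites are built) in 16.2%, TATAAA in 14.2%, TGACNNNGC (the core of the antioxidant response element) in 12.1% and CACGTG (an E-box) in 6.42%. Aldh1a1 held CCAAT at 88 and 18 bases before its start and no GC box. Aldh1a3 held CCAAT at 70 bases before its start and 3 GC boxes. Aldh3a2 held 1 of each, at 76 and 152 bases. None of the other 4 motifs was found in these 3 windows. Among the other members, Aldh9a1 alone held that hexamer, once, and the antioxidant core, in overlapping bases. A match describes letters in the window and no binding was measured.

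The tBA and vehicle arrays were compared to see which transcripts of the family differed after dosing. Values are log2 of the processed signal minus the array's 75th percentile, so a value of 0 is that percentile and a difference of 1 is a 2-fold change. A gene takes its brightest tested probe, and levels of different genes are not compared. No member passed the adjusted p threshold of 0.05 in limma, while 5 of 11094 genes tested did (0.0451%), as did 43 of 37647 probes (0.114%). At an unadjusted p under 0.05 there were 3 members, 42.9% of the 7, against 15.1% of all genes tested. In 5 of the 7 members the 3 tBA values lay entirely above or entirely below the 3 vehicle values (71.4%), against 24.2% of all genes tested. Both counts include Aldh1a3, which entered the test through the vehicle group alone, where it is higher. With probes well above background on all 6 arrays, Aldh1a3 was not tested and the counts were 2 and 4 of 6 members. Under that filter 1633 of 10698 genes had an unadjusted p under 0.05, and genes without overlap were not counted. The member counts describe the members tested and support no statement about the 10 listed. Of the 7, 4 had a higher mean with tBA and 3 a lower one, and the median difference was 0.15 against 0.003 for all genes. With 3 arrays a group, the smallest two-sided p of an exact permutation test is 0.1.

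**Figure D1:**
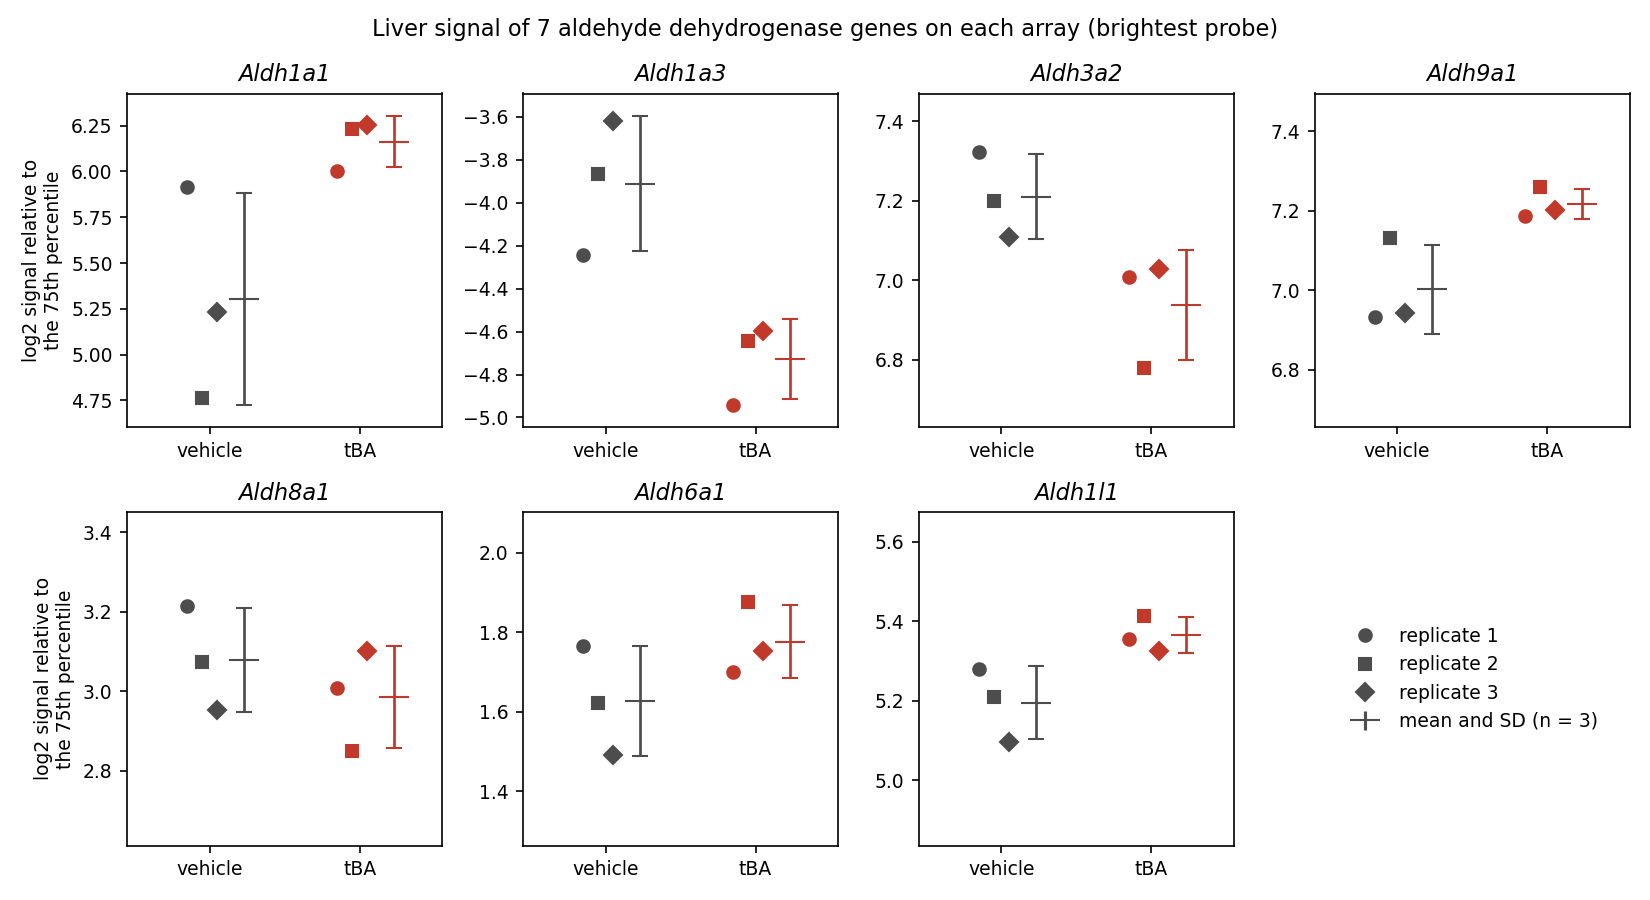
Log2 signal of the brightest probe of each of the 7 members relative to the array's 75th percentile, by group; points are arrays (shapes give the replicate) and the bars are the mean and SD of 3 arrays. Aldh1a1, Aldh9a1 and Aldh1l1 show all tBA points above all vehicle points, and Aldh1a3 and Aldh3a2 all tBA points below them.

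Of the retinal-oxidising members, Aldh1a1 was well measured and Aldh1a3 lay near background. Aldh1a1, the cytosolic enzyme that turns retinal into retinoic acid and also oxidises aldehydes from lipid peroxidation, had vehicle levels of 5.91, 4.77 and 5.23 and tBA levels of 6.00, 6.23 and 6.26. The groups do not overlap, with a gap of 0.088 between vehicle replicate 1, the highest of its group, and tBA replicate 1, the lowest of the other. The vehicle mean was 5.30 ± 0.58 (SD, n = 3) and the tBA mean 6.16 ± 0.14 (SD, n = 3). The vehicle SD was larger than that of 95.2% of genes tested. The difference was 0.86 (SE 0.29, 95% interval 0.17 to 1.55), or 1.81-fold, with a limma adjusted p of 0.278. A second Aldh1a1 probe gave 0.85 (SE 0.29), with vehicle and tBA levels that overlapped: 3.88, 2.75 and 3.14 against 3.85, 4.25 and 4.22. Within slide 1, where tBA replicate 1 is the only tBA array, the difference was 0.70 (limma adjusted p = 0.775). Leaving out vehicle replicate 3, tBA replicate 2 or tBA replicate 3 took its unadjusted p above 0.05, and the groups overlapped under quantile normalization. Aldh1a7 is a close rodent paralogue of Aldh1a1, and whether the Aldh1a1 probes also read its transcript was not tested.

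Aldh1a3 also makes retinoic acid from retinal and had 1 probe, which passed the filter only through the vehicle arrays. Its levels were -4.25, -3.87 and -3.62 in vehicle and -4.94, -4.65 and -4.60 in tBA, where tBA replicate 1 was not well above background. The processed signals were only 31.3, 43.2 and 52.0 against 19.0, 22.7 and 23.5 units. The vehicle arrays were all higher than the tBA arrays. The fitted difference was -0.82 (SE 0.19, limma adjusted p = 0.202), and the gene fails a filter that asks for signal well above background on all arrays. With normexp background correction the difference was -0.18 (limma adjusted p = 0.417) and the groups overlapped. Within slide 1 it was -1.03, where the only tBA array is replicate 1, the array not well above background. Its vehicle SD was larger than that of 84.0% of genes tested.

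Markers of other cell types are given beside these genes. Of 11 stellate cell markers tested, 10 were lower with tBA, with a summed level of 54.6 to 69.6 in vehicle and 44.6 to 60.5 in tBA, ranges that overlap. Under median scaling 7 of the 11 were lower. Of 10 T and NK cell markers tested, 8 were lower, with sums of 4.35 to 6.6 against 3.61 to 4.85. Of 12 pericentral hepatocyte markers, 7 were lower, while their summed level was higher, 765 to 861 in tBA against 489 to 652 in vehicle. A sum follows its brightest markers, and Cyp2e1, 1 of the 12, had log2 levels of 9.12, 9.38 and 9.23 in tBA against 8.73, 8.56 and 8.37. The mean log2 level of the 12, relative to vehicle, was -0.105, -0.103 and -0.078 in tBA. That lies inside the vehicle range of -0.282 to 0.225, so the list as a whole did not rise. The periportal sum was also higher, at 1450 to 1630 against 1180 to 1350, with 9 of 12 markers higher (7 under quantile normalization). Of 12 Kupffer and macrophage markers 9 were lower (7 under median scaling), with sums of 224 to 240 against 209 to 278. Of 5 B cell markers tested 4 were lower, with sums of 1.93 to 2.34 against 2.52 to 2.64. The sinusoidal endothelial list went the other way, with 5 of 7 markers tested higher and sums of 53.2 to 55.3 against 45.2 to 51.3. Of 7 bile duct markers tested 4 were lower (2 under normexp background correction and 3 under quantile normalization). Their sums were 1.98 to 2.93 in tBA against 2.42 to 2.49 in vehicle. No marker of these lists that had a named probe stayed below background on every array. The part of any of these lists in the members' differences was not tested.

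Aldh3a2, the microsomal enzyme that oxidises long-chain fatty aldehydes, phytol products and the hexadecenal left by sphingosine 1-phosphate breakdown, had a lower mean with tBA. Vehicle levels were 7.32, 7.20 and 7.11 and tBA levels 7.01, 6.78 and 7.03. The lowest vehicle array was 0.082 above the highest tBA array. The means were 7.21 ± 0.11 (SD, n = 3) and 6.94 ± 0.14 (SD, n = 3). The difference was -0.27 (SE 0.11, 95% interval -0.54 to -0.003), a ratio of 0.83, with a limma adjusted p of 0.329. A second Aldh3a2 probe gave -0.33 (SE 0.13) and its groups did not overlap either. Leaving out any of 5 of the 6 arrays, all except vehicle replicate 3, took its unadjusted p above 0.05. So did slide as a fixed block (-0.20), slide 1 alone (-0.20), median scaling (-0.20), no filter on dim probes and the replicate block (both -0.27).

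The list made for fatty alcohol, phytol and sphingosine turnover also holds enzymes of fatty acids, such as Fads1. Of its 13 tested genes, Aldh3a2 among them, 7 were higher and 6 lower, and none passed the adjusted threshold. Hsd17b4, a peroxisomal beta-oxidation enzyme, was higher in every tBA array (difference 0.34, SE 0.09, limma adjusted p = 0.225). Cyp4f4 had a difference of 0.22 (SE 0.10), Cyp4f1 of -0.13 (SE 0.14) and Cyp4a1, the fatty acid omega-hydroxylase, of -0.008 (SE 0.29). The difference of largest size in the list was that of Fads1, a fatty acid desaturase named after its value was seen, at -1.60 (SE 0.32, limma adjusted p = 0.187). Hsd17b4, Fads1 and Aldh3a2 were the 3 genes (23.1%) with an unadjusted p under 0.05, against 15.1% of all genes tested.

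Aldh9a1 oxidises the aldehyde that precedes butyrobetaine in carnitine synthesis, and aldehydes from polyamines. Its levels were 6.93, 7.13 and 6.94 in vehicle and 7.19, 7.26 and 7.20 in tBA. All tBA arrays were above all vehicle arrays, by 0.057, and the tBA SD of 0.038 was smaller than that of 94.0% of genes tested. The difference was 0.22 (SE 0.09, 95% interval -0.01 to 0.44), with a limma adjusted p of 0.342. A second probe gave 0.22 (SE 0.10) with overlapping groups. Quantile normalization took the difference to 0.087 (limma adjusted p = 0.662) and the groups then overlapped. Normexp took it to 0.30 (limma adjusted p = 0.205) without overlap. The other carnitine synthesis genes tested had lower means with tBA. Tmlhe, the first enzyme of the route, had a difference of -0.40 (SE 0.14, limma adjusted p = 0.289) without overlap. Shmt2, a serine hydroxymethyltransferase, had -0.21 (SE 0.12) and Bbox1, the last enzyme, -0.03 (SE 0.14). Aldh9a1 was thus the 1 of 4 genes of this route with a higher mean, and under median scaling Bbox1 was higher too. Tmlhe was the 1 of 4 (25%) with an unadjusted p under 0.05, against 15.1% of all genes tested.

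Aldh1l1, cytosolic 10-formyltetrahydrofolate dehydrogenase, which yields tetrahydrofolate, spanned 0.182 across the vehicle arrays and 0.089 across the tBA arrays. Vehicle levels were 5.28, 5.21 and 5.10 and tBA levels 5.36, 5.41 and 5.33. The groups do not overlap, by 0.046. The difference was 0.17 (SE 0.09, 95% interval -0.05 to 0.39), with a limma adjusted p of 0.408. Under quantile normalization it was 0.081 and the groups overlapped, while with normexp it was 0.25 (limma adjusted p = 0.226) without overlap. Of 19 folate genes tested, Aldh1l1 among them, 12 were higher and 7 lower, and none passed the threshold. Only 1 (5.26%) had an unadjusted p under 0.05, against 15.1% of all genes tested. That gene was Ftcd, which joins histidine breakdown to folate, at 0.64 (SE 0.12, limma adjusted p = 0.173), higher in 3 of 3 tBA arrays. Mthfd1 had 0.29 (SE 0.12), Gnmt 0.22 (SE 0.18) and Mthfs 0.003 (SE 0.12).

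The members of the amino acid routes had groups that overlap. Aldh8a1, which oxidises the aminomuconic semialdehyde of the kynurenine branch, had vehicle levels of 3.21, 3.07 and 2.95 and tBA levels of 3.01, 2.85 and 3.10, and the groups overlap. The difference was -0.09 (SE 0.11, 95% interval -0.37 to 0.18, limma adjusted p = 0.702). Of 11 genes of the branch tested, Aldh8a1 among them, 7 were higher and 4 lower, and none passed the threshold. Tdo2, which opens the tryptophan ring, had 0.62 (SE 0.17, limma adjusted p = 0.248), Kynu 0.35 (SE 0.11), Kyat3 0.19 (SE 0.12) and Qprt -0.11 (SE 0.14). The 4 genes with an unadjusted p under 0.05 (36.4%, against 15.1% of all genes tested) were Tdo2, Kynu and, named after their values were seen, Afmid at 0.50 (SE 0.11) and Acmsd, whose product is the substrate of Aldh8a1, at 0.89 (SE 0.36).

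Aldh6a1, the mitochondrial methylmalonate semialdehyde dehydrogenase of valine and thymine breakdown, had levels of 1.77, 1.62 and 1.49 in vehicle and 1.70, 1.88 and 1.75 in tBA, and the groups overlap. The difference was 0.15 (SE 0.11, 95% interval -0.11 to 0.41, limma adjusted p = 0.514). Of 22 genes of branched-chain amino acid and thymine breakdown tested, 18 had a higher mean and 4 a lower one, and the median difference was 0.14; under quantile normalization 14 were higher. Hibadh, the step before Aldh6a1 in valine breakdown, had 0.31 (SE 0.09, limma adjusted p = 0.252), Echs1 0.16 (SE 0.09), Hadh 0.08 (SE 0.10) and Upb1 0.43 (SE 0.38). The 4 genes of the list with an unadjusted p under 0.05 (18.2%, near the 15.1% of all genes tested) were Hibadh and, named after their values were seen, Dbt at 0.82 (SE 0.14), Hibch at 0.41 (SE 0.15) and Pcca at 0.40 (SE 0.14). None of the list passed the threshold.

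The pathways of members without a named probe could be read only through their other genes. Aldh7a1 oxidises the aminoadipate semialdehyde of lysine breakdown: of 10 lysine and pipecolate genes tested, 7 were higher and 3 lower. Pipox, which oxidises pipecolate, had 0.63 (SE 0.10, limma adjusted p = 0.164) with levels of 6.08, 5.90 and 6.10 against 6.64, 6.57 and 6.75, so the groups do not overlap. Gcdh had 0.36 (SE 0.11), Dlst 0.06 (SE 0.13) and Crym -0.21 (SE 0.24). Aass, the entry enzyme of lysine breakdown and named after its value was seen, had 0.61 (SE 0.16). Pipox, Gcdh and Aass were the 3 of 10 genes (30%) with an unadjusted p under 0.05, against 15.1% of all genes tested. Aldh5a1 oxidises succinate semialdehyde from GABA: of 7 genes tested, 4 were higher and 3 lower. Adhfe1, which makes that semialdehyde, had 0.35 (SE 0.12), Akr7a2 0.24 (SE 0.13), Akr7a3 0.22 (SE 0.17) and Slc6a13, a GABA transporter, -0.40 (SE 0.12). Adhfe1 and Slc6a13 were the 2 of 7 genes (28.6%) with an unadjusted p under 0.05, against 15.1% of all genes tested. None passed the adjusted threshold.

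**Figure D2:**
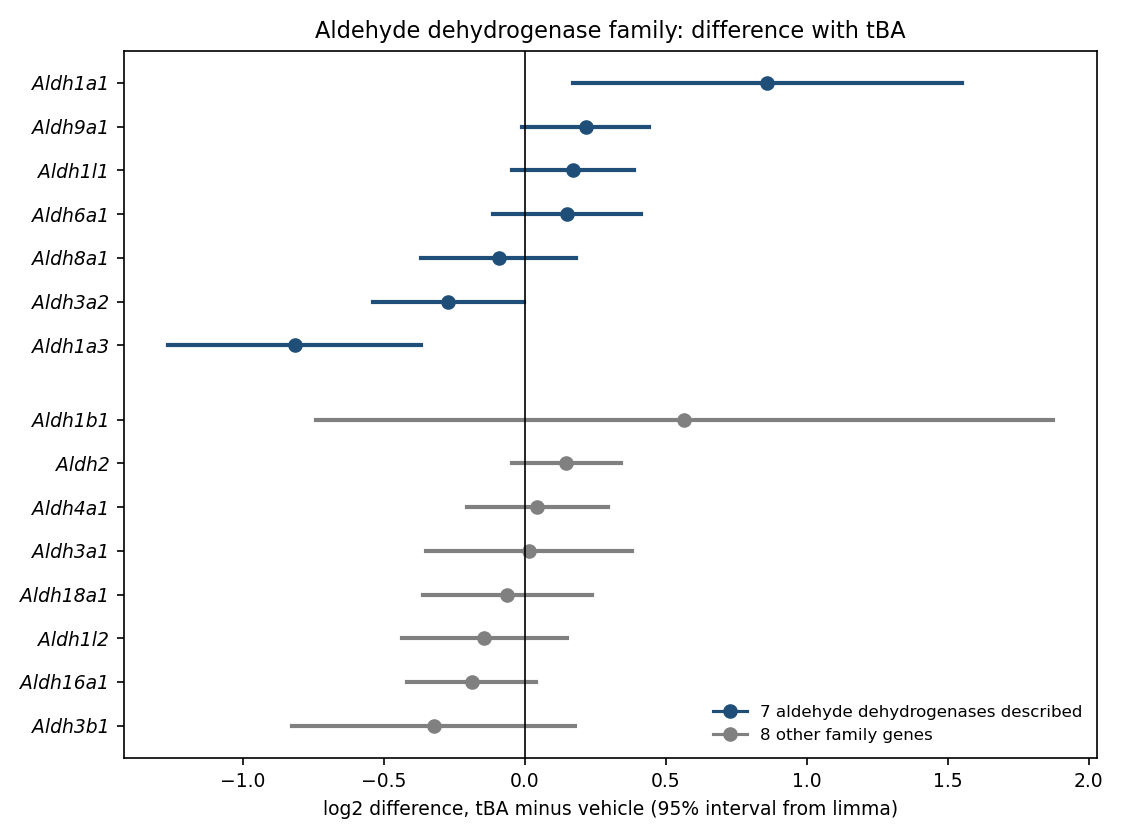
Log2 difference, tBA minus vehicle, with its 95% limma interval for the 7 members (blue) and the 8 other aldehyde dehydrogenases tested (grey). Only the intervals of Aldh1a1, Aldh1a3 and Aldh3a2 leave out 0.

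Of the 11 other genes of the family listed, 8 were tested. Their median difference was -0.03, 4 had a higher mean and 4 a lower one (5 higher under median scaling and 3 under quantile normalization), and none had an unadjusted p under 0.05. Aldh2, the mitochondrial acetaldehyde enzyme, had a difference of 0.15 (SE 0.08) with levels of 7.37, 7.34 and 7.30 against 7.53, 7.48 and 7.45. Aldh2 and Aldh16a1, at -0.19 (SE 0.09), were the 2 genes whose groups do not overlap (25%, near the 24.2% of all genes tested). Aldh3a1 had 0.013 (SE 0.15), Aldh4a1 0.04 (SE 0.10), Aldh18a1 -0.06 (SE 0.12), Aldh1l2 -0.14 (SE 0.12) and Aldh3b1 -0.32 (SE 0.21). The signs of Aldh3a1, Aldh4a1 and Aldh18a1 changed with the scaling or background correction. A second Aldh18a1 probe gave -0.487 (SE 0.205), and the other Aldh4a1 probes gave -0.045 (SE 0.104) and -0.072 (SE 0.107). For the remaining genes of this group the second probe had the sign of the brightest. Aldh1b1 had 0.57 (SE 0.54) with a vehicle SD larger than that of 98.5% of genes tested. Aldh1a2, the remaining retinal-oxidising gene, stayed under the limit for well above background on every array. Retinoid genes around the family were scattered: of 26 tested, 15 were higher and 11 lower (12 higher under quantile normalization). Only 1 (3.85%) had an unadjusted p under 0.05, against 15.1% of all genes tested. That gene, named after its value was seen, was Crabp2, a retinoic acid carrier, at 0.48 (SE 0.16). Rbp4 had 0.15 (SE 0.09), Adh1c 0.09 (SE 0.24) and Rdh7 0.02 (SE 0.11).

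The list made for alcohol and aldehyde oxidation and reduction outside the family also holds genes, such as Hpd, that are not alcohol or aldehyde enzymes. Of its 19 genes tested, 13 were higher and 6 lower, and under quantile normalization 9 were higher. In this list 5 genes (26.3%) had an unadjusted p under 0.05, against 15.1% of all genes tested. Cyp2e1, the ethanol-oxidising cytochrome and also a pericentral marker, had 0.69 (SE 0.13, limma adjusted p = 0.173), with levels of 8.73, 8.56 and 8.37 against 9.12, 9.38 and 9.23. Aox1, aldehyde oxidase, had 0.57 (SE 0.30) and Hpd 0.19 (SE 0.13), and neither left 0 out of its interval. The other 4 genes with an unadjusted p under 0.05, named after their values were seen, went both ways. Catalase (Cat) had -0.52 (SE 0.15) and Aox3, another aldehyde oxidase, -0.75 (SE 0.27). Cbr4, a carbonyl reductase, had 0.35 (SE 0.12) and Esd, which completes formaldehyde oxidation, 0.32 (SE 0.08).

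**Figure D3:**
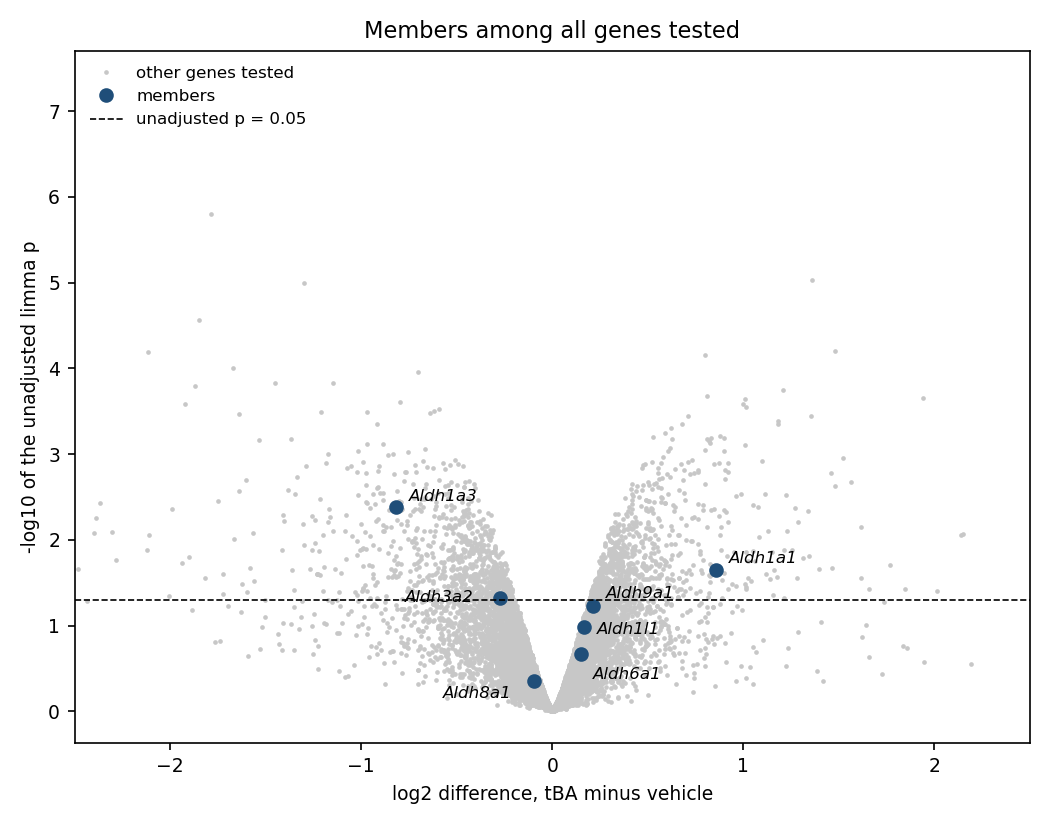
Log2 difference against -log10 of the unadjusted limma p for 11094 genes, members in blue; 12 genes beyond 2.5 on the horizontal axis are not drawn. Aldh1a1, Aldh1a3 and Aldh3a2 lie above the dashed line, which marks the unadjusted threshold of 0.05.

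Every member kept its direction in each alternative run, 20 for 6 members and 19 for Aldh1a3. Many of these runs could not have changed it, because they refit the same probe values. For Aldh1a1 the main fit, no filter, probes above background on all arrays and the replicate block all gave 0.859. Slide as a fixed block and slide 1 alone both gave 0.697. The number of runs is thus not a number of separate checks. The range of the difference was 0.59 to 1.16 for Aldh1a1, -1.03 to -0.18 for Aldh1a3, -0.40 to -0.19 for Aldh3a2 and 0.09 to 0.30 for Aldh9a1. It was 0.08 to 0.25 for Aldh1l1, 0.07 to 0.22 for Aldh6a1 and -0.16 to -0.02 for Aldh8a1. The -1.03 of Aldh1a3 came from the slide 1 comparison and rests on tBA replicate 1, which was not well above background for this gene. Among the pathway genes named above, Adh1c, Rdh7, Dlst, Hadh, Bbox1, Mthfs and Cyp4a1 changed sign under at least 1 other scaling.

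**Figure D4:**
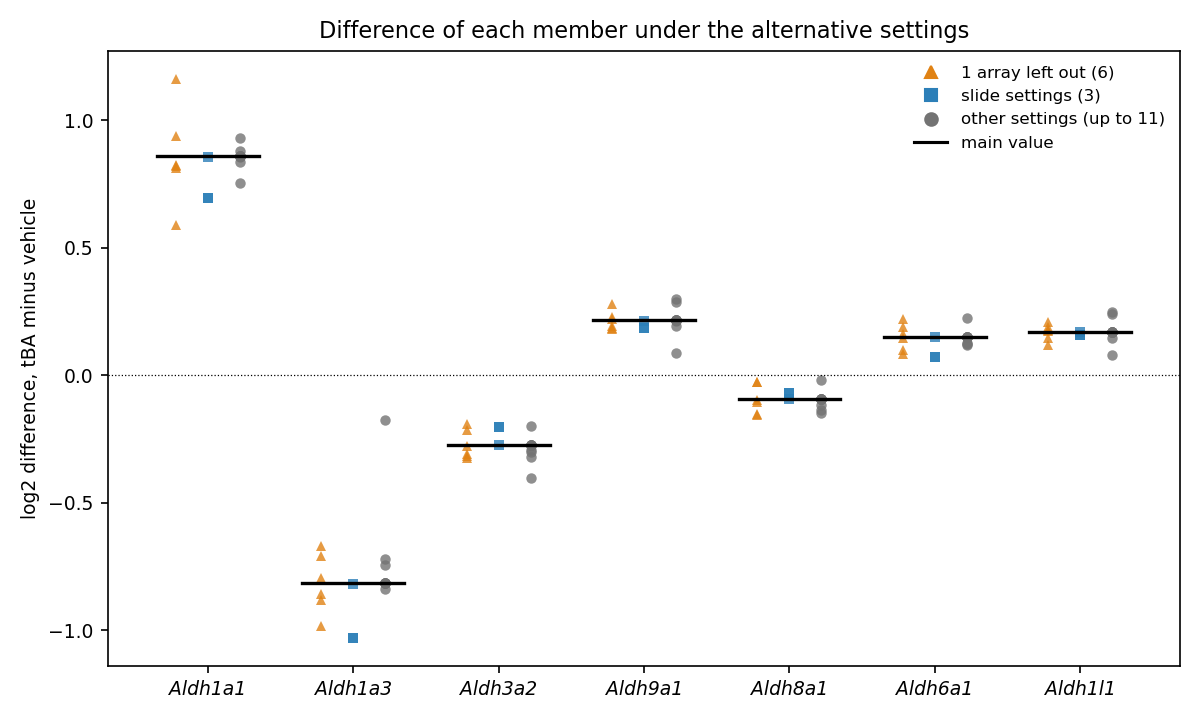
Log2 difference, tBA minus vehicle, of each member under each alternative setting (points) and as reported (black lines). The points stay on 1 side of the dotted zero line for each of the 7 genes, with the values of Aldh1a3 the most spread, -1.03 to -0.18. Many settings refit the same values, so their points repeat the reported difference.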

How the data were processed

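Liver RNA of 3 vehicle and 3 tBA rats was measured on one-colour arrays. Per the file headers, the authors' intensity of each spot comes from Feature Extraction 10.7.1.1 (Agilent), which subtracts background, and the submitters' processing notes give 10.7. The deposited series table holds a linear ratio, the processed signal divided by 1 number per array (570 to 639), close to the 75th percentile. Per the labels, each array is 1 animal.

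Here, log2 of the processed signal minus the array's 75th percentile over 61657 probes was used, and the 3 to 16 spots an array marked as outliers were set to missing. Probes well above background throughout either group (37647) were tested in R 4.3.3 with limma 3.58.1 (lmFit, eBayes), and a gene took the tested probe with the highest mean linear signal. P-values were Benjamini-Hochberg adjusted over 11094 genes, called under 0.05. Probes were named by accession through RefSeq (27460 of 61657), and the array's own annotation uses an older genome, so no coordinates were taken from it. The fit was tested on simulated data. The members and lists were chosen with earlier results of these data known, and lists name their 4 brightest genes, of which 1 is not reported here as a single gene and stays in the tests and counts. A first run took the probe with the highest mean log2 signal and called 4 genes. The choice was changed to fit the written rule after that count was seen. Leave-one-out and slide 1 fits kept the probes of the 6-array fit. Normexp used the median spot signal with an offset of 50, in place of the mean signal. Figures used Python 3.11.15 and matplotlib 3.10.9.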

Additional observations from a re-analysis of the deposited data

How the results depend on the processing

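No member was called in any alternative run. Against the 5 of all genes called, 3 were called with normexp, 2 with no filter, 2 with probes above background on all arrays, 3 with slide as a fixed block, 0 within slide 1 (805 at an unadjusted limma p under 0.05) and 0 with the replicate block (1337 at unadjusted p under 0.05), and 1 to 10 with 1 array left out. The probe choice by mean log2 signal, added after seeing the data, gave 4. Same-numbered arrays had correlations of their deviations of -0.064 to 0.014. These values show no sign that the replicate numbers pair the animals, but cannot settle how the animals were numbered. Members with an unadjusted p under 0.05 went from 3 to 1 with slide as a fixed block. Over all 11094 genes that count went from 1674 to 818. With 1 array left out the members were 1 to 3, among 1098 to 1769 genes, and 1 without tBA replicate 2 or tBA replicate 3. Aldh9a1 was under 0.05 in 4 of 20 alternatives and Aldh1l1 in 2 of 20, normexp and median scaling among them. Under these 2 settings the count over all genes rose too, to 1911 and 1991. Members without overlap went from 5 to 2 under quantile normalization, where the matching count over all genes was not taken. The cause was not tested.

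Genes beside the members changed sign in some alternatives. The percentile over detected probes gave Aldh3a1 -0.010, Rdh7 -0.007 and Mthfs -0.020. Normexp gave Aldh4a1 -0.033, Aldh18a1 0.000 and Mthfs -0.039. Quantile normalization gave Aldh4a1 -0.081, Adh1c -0.014, Rdh7 -0.102, Dlst -0.012, Hadh -0.012 and Mthfs -0.061. The mean of all probes gave Aldh4a1 -0.024. Median scaling gave Aldh18a1 0.011, Bbox1 0.042 and Cyp4a1 0.065. Slide as a fixed block and slide 1 alone both gave Adh1c -0.097, Rdh7 -0.008, Crym 0.212, Dlst -0.104 and Cyp4f1 0.061. With 1 array left out, Aldh3a1 ran from -0.139 to 0.118, Aldh4a1 ran from -0.002 to 0.117, Aldh18a1 ran from -0.128 to 0.058, Adh1c ran from -0.130 to 0.302, Rdh7 ran from -0.058 to 0.071, Dlst ran from -0.068 to 0.137, Bbox1 ran from -0.130 to 0.064, Mthfs ran from -0.073 to 0.088 and Cyp4a1 ran from -0.273 to 0.248.

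Signal over background limits Aldh1a3, and each slide comparison has 1 tBA array.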
